A study of Homo sapiens with 8 samples.

Results

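The 44 genes followed here are interferon-stimulated genes, the antiviral and signalling genes that cells transcribe when interferon reaches its receptors. The members were a given list of symbols, and each gene was read from the probe set that the array annotation pairs with its symbol alone. Where a gene had several such probe sets, which among the members was true of TRIM22, the one with the highest mean over the 8 arrays was taken. Of the 44 listed members 41 had a value, of 17958 genes with a value in all. STAT2, GBP1 and DTX3L were not analysed here.

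Total RNA of 2 established human lymphoma lines was measured on whole-transcript arrays, 1 sample per array. KMH2, derived from Hodgkin lymphoma, gave 3 control arrays and 3 arrays of cells exposed to glucosamine for 24 h, and Ramos, derived from Burkitt lymphoma, gave 2 arrays. Glucosamine is an amino sugar that cells take up and feed into the hexosamine pathway, and the sources used here do not state its dose. The series' design text calls the KMH2 replicates biological, but does not say this of Ramos. The spread behind p-values that involve Ramos comes from all 8 arrays, and so mostly from KMH2. The spread between Ramos cultures may therefore be missing from these p-values. Sample titles call both Ramos arrays control, whereas the design text places 1 of them after glucosamine, so Ramos is described here as a cell line, with no treatment assigned to either array. Both lines were grown in RPMI medium with serum, and each line stands for 1 tumour in culture.

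Type I interferons bind the receptor pair IFNAR1 and IFNAR2, which activates the kinases JAK1 and TYK2 and a transcription factor complex that contains IRF9. That complex binds the interferon-stimulated response element (ISRE) in promoters, while interferon gamma, through IFNGR1 and IFNGR2, acts mainly on the gamma-activated site (GAS). The products sense viral RNA and DNA (RIGI, IFIH1, IFI16) and destroy or sequester viral RNA (the OAS and IFIT families). Others restrict entry or release of virus (IFITM1, BST2) or shut the signal off again (USP18).

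The ISRE is the sequence feature these genes are best known for, and it was looked for in RefSeq promoters (GRCh38.p14), from 250 bases before to 50 after the start of each gene. The letters searched were GAAANNGAAA for the ISRE core and its reverse, TTTCNNTTTC, and TTCNNNGAA, which reads the same on both strands, for the GAS core. Of the 44 listed members 35 had an entry in the promoter table, and 24 of these (68.6%) held an ISRE core, against 4.38% of the 27305 genes in the table. A GAS core stood in 28.6% of the 35 members and in 9.38% of all genes in the table, and 5 of the 11 distinct GAS cores in members overlapped an ISRE core. These matches are descriptions of letters, not of binding.

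The promoters below belong to the 6 members with an entry whose signal rose after glucosamine, and to IFIT5 and RIGI, which fell. Each is a stretch of 160 bases upstream of the start on the gene's own strand, 5′ to 3′, with ISRE cores in capitals.
IFI44L, chr1:78620233-78620392, plus strand: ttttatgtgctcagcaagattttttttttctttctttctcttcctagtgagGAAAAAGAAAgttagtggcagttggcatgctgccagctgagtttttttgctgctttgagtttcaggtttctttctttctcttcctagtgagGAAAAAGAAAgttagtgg
IFI44, chr1:78649629-78649788, plus strand: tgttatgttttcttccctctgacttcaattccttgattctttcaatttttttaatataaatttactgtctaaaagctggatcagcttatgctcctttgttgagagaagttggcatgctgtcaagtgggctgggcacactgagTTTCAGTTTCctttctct
IFIH1, chr2:162318688-162318847, minus strand: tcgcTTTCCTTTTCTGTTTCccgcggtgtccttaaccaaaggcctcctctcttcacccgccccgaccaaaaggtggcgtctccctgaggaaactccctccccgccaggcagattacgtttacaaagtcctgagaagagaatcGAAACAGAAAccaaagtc
IFIT1, chr10:89392378-89392537, plus strand: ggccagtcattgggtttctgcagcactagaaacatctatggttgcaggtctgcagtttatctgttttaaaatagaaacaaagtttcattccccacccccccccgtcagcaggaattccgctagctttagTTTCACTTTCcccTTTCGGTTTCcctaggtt
OAS3, chr12:112938314-112938473, plus strand: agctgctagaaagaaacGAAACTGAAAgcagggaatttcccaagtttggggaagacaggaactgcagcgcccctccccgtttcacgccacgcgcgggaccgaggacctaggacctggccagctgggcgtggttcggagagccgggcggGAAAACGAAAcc
IFI6, chr1:27672268-27672427, minus strand: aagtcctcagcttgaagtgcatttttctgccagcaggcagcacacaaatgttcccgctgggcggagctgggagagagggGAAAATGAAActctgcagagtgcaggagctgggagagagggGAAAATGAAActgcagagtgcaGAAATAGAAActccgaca
IFIT5, chr10:89414407-89414566, plus strand: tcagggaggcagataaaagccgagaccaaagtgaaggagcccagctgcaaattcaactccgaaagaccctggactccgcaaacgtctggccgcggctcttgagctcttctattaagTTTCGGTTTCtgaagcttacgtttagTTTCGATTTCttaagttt
RIGI, chr9:32526197-32526356, minus strand: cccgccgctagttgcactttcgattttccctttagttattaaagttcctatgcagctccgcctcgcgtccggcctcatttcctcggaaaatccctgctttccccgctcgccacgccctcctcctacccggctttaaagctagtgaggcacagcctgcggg

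The ISRE cores of IFI44L lie within a repeated block of sequence, at -164 to -155 and at -73 to -64 from the start. IFI6 and IFIH1 each held 3 cores, and IFIT5 held 3, of which the last runs across the start and is not in the printed stretch. The window of RIGI held no ISRE core, which says only that these letters are not in it. Among members with an entry, an ISRE core stood in 6 of the 6 that rose after glucosamine, in 3 of the 4 that fell and in 13 of the 22 that were not called. The motif therefore stood in promoters of members of either direction, as the plot of motif positions shows. The members DHX58, IRF7, OAS2, OASL, IFIT2, USP18, MX2, GBP2 and TRIM22 have values below but no promoter entry here.

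**Figure D1:**
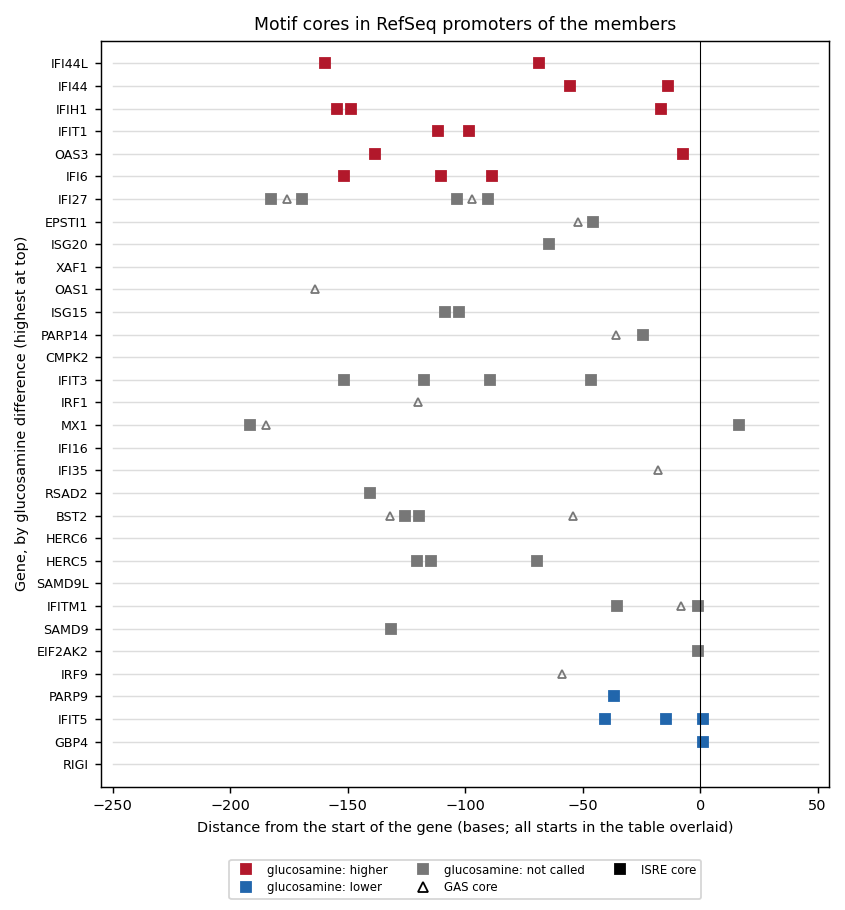
Positions of ISRE cores (squares) and GAS cores (triangles) in RefSeq promoters of the 32 measured members with an entry, by distance in bases from the start of the gene, with all starts of a gene overlaid; colour gives the call after glucosamine. All 6 members that rose and 3 of the 4 that fell hold at least 1 ISRE core.

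Values are log2 signals, so a difference of 1 is a doubling, and a probe set's level was not set against that of another probe set. Array medians ran from 5.62 to 5.68, and the typical SD of a probe set (median over probe sets) was 0.067 among control, 0.080 among glucosamine and 0.113 among Ramos arrays. The lines carried the markers of their labels. MS4A1, the B-cell antigen CD20, averaged 3.70 in KMH2 control and 10.94 in Ramos, and TNFRSF8, the Hodgkin antigen CD30, averaged 8.74 and 5.86. All 11 measured B-cell markers were higher in Ramos, where 9 of 12 Hodgkin markers were lower and 1 was higher. After glucosamine 7 of 12 Hodgkin markers fell and 1 rose, and their mean per array went from 8.29 to 8.38 in control to 8.05 to 8.12. After glucosamine 1 of 6 plasmacytoid dendritic markers (TCF4), 1 of 9 myeloid markers (CD14) and 1 of 12 T and NK markers (CD4) fell, and none of these rose. In Ramos 2, 2 and 2 of them were higher and 1, 2 and 4 were lower, the last 4 being CD4, CD3D, CD3G and ZAP70. Over all genes 12.0% rose and 14.1% fell after glucosamine, and 22.6% were higher and 21.6% lower in Ramos. The mean of the T and NK list per array ran from 5.83 to 5.89 in control, from 5.77 to 5.85 after glucosamine and from 4.92 to 4.95 in Ramos. That of the plasmacytoid dendritic list ran from 6.41 to 6.55, from 6.24 to 6.56 and from 6.35 to 6.46, and that of the myeloid list from 5.24 to 5.30, from 5.15 to 5.19 and from 5.11 to 5.15. The part of these markers in the results was not tested. In bulk RNA, fewer cells that transcribe a gene and less RNA per cell cannot be told apart.

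Exposure of KMH2 to glucosamine raised some interferon-stimulated genes and lowered others. With limma and an adjusted p under 0.05, 12 of the 41 members rose, 5 fell and 24 did not pass. Over all genes 12.0% rose and 14.1% fell. Rises were thus more frequent among the members than among all genes, but falls were not. The steepest rises were those of the neighbours IFI44L and IFI44, followed by OAS2 and the RNA sensor IFIH1, and the steepest fall was that of the other RNA sensor, RIGI. The median difference was 0.16 over the members and 0.014 over all genes, and 27 of 41 differences were positive. The arrays of the groups did not overlap in 14 members with higher and 8 with lower glucosamine values, against 20.3% and 20.8% of all genes. At an unadjusted p under 0.05 stood 21 of the 41 members and 6527 of the 17958 genes.

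**Figure D2:**
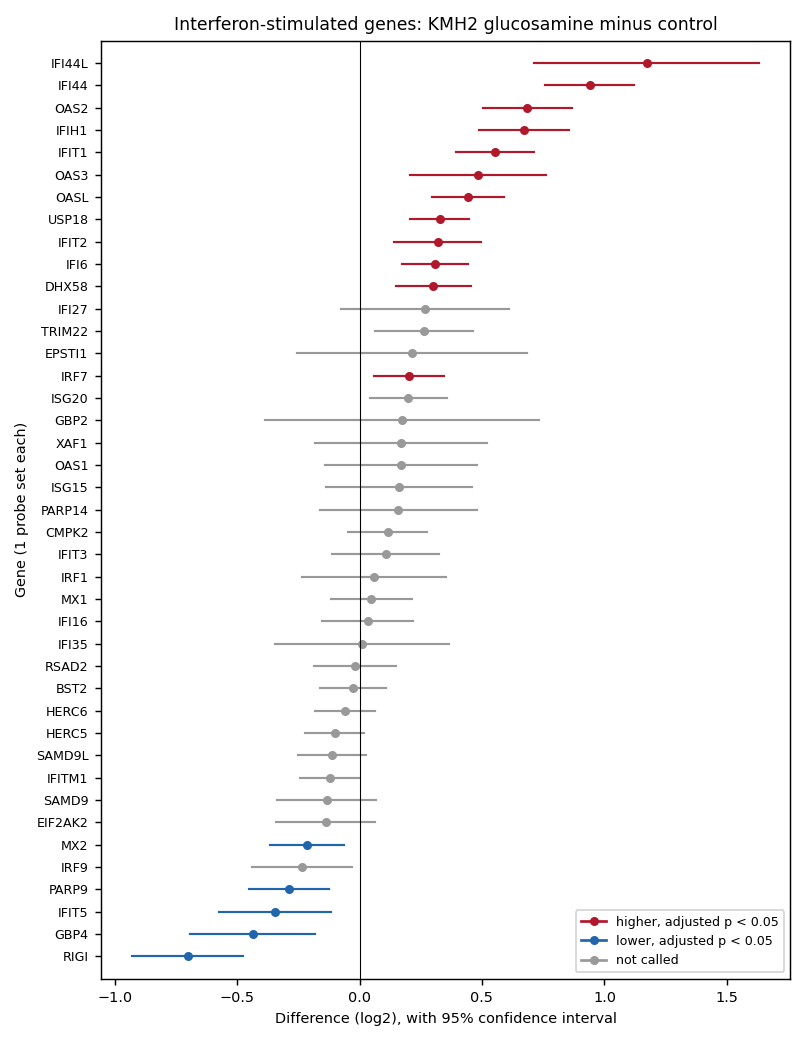
Difference between KMH2 glucosamine and KMH2 control (log2) for the 41 measured members, with its 95% confidence interval from limma; colour marks members past an adjusted p of 0.05. IFI44L stands at 1.17 and IFI44 at 0.94 at the upper end, and RIGI at -0.70 at the lower end.

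The sensors of viral nucleic acid moved in opposite directions. IFIH1, also called MDA5, senses long double-stranded RNA, and its control arrays read 8.05, 7.91 and 8.20 against 8.65, 8.77 and 8.75 after glucosamine. All 3 treated arrays lay above all controls, a rise of 0.67 ± 0.08 (SE, n = 3 per group), or 1.59-fold (adjusted p = 0.000654, limma). RIGI, which senses short RNA with a 5′ triphosphate, read 7.01, 7.20 and 7.16 in control and 6.23, 6.60 and 6.43 after glucosamine. The treated arrays all lay below the controls, and the gene fell by 0.70 ± 0.10, or 1.63-fold (adjusted p = 0.00138, and 0.114 when all 8 arrays shared the spread). DHX58, or LGP2, a relative of both that tunes their signal, rose by 0.30 ± 0.07 (adjusted p = 0.0113, and 0.0594 with the spread of all 8 arrays). IFI16, a sensor of DNA in the nucleus and cytosol, differed by 0.03 with a 95% confidence interval of -0.15 to 0.22.

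Of the transcription factors in the list, IRF7 passed the test. IRF7 drives transcription of type I interferon genes, and its control arrays of 5.82, 5.87 and 5.79 were followed by 6.10, 6.06 and 5.93 after glucosamine. The rise was 0.20 ± 0.06 (adjusted p = 0.044), and the call was lost without control 1, 2 or 3 (0.104, 0.0850 and 0.132) or without glucosamine 1 or 2 (0.0886 and 0.117). IRF9, the DNA-binding part of the complex that reads the ISRE, differed by -0.23 ± 0.09 (adjusted p = 0.0917). With the replicate number as a block its adjusted p was 0.0412, and without control 1, the lowest control array for this gene, it was 0.00786. IRF1, an activator induced above all by interferon gamma, differed by 0.06 with an interval of -0.23 to 0.35.

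The OAS family makes the short oligoadenylates that switch on the RNA-degrading enzyme RNase L. OAS2 rose from 8.00, 7.93 and 7.72 in control to 8.50, 8.58 and 8.62, a difference of 0.68 ± 0.08 or 1.61-fold (adjusted p = 0.000583). OASL, a relative that has lost the enzyme activity and binds RIGI, rose from 5.83, 5.70 and 5.75 to 6.28, 6.11 and 6.22, or by 0.44 ± 0.06 (adjusted p = 0.00154). In both genes the groups were apart on every array. OAS3 rose by 0.48 ± 0.12 (adjusted p = 0.0201), with control arrays of 6.26, 5.89 and 5.78 against 6.59, 6.42 and 6.37. Its call was lost without control 2 (adjusted p = 0.0776) or control 3 (0.0716), and with the spread of all 8 arrays (0.0585). OAS1 lies beside OAS3 and OAS2 on chromosome 12, and its difference of 0.17 ± 0.14 had overlapping arrays and an adjusted p of 0.429. EIF2AK2, the kinase PKR, which stops translation when it binds double-stranded RNA, differed by -0.14 ± 0.09 (adjusted p = 0.308).

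The IFIT proteins bind viral RNA that lacks the host's cap marks, and the 4 genes of the family lie close together on chromosome 10. IFIT1 read 4.96, 5.01 and 4.96 in control and 5.49, 5.66 and 5.43 after glucosamine. That rise, 0.55 ± 0.07 or 1.47-fold, had an adjusted p of 0.000821. Its neighbour IFIT5 went from 6.73, 6.99 and 6.95 to 6.41, 6.72 and 6.51, and fell by 0.34 ± 0.10 (adjusted p = 0.036). The 2 neighbours thus moved apart, with no overlap of arrays in either, although IFIT5 by little: its highest treated array lay just under its lowest control. The call of IFIT5 was lost without control 2 (0.128), control 3 (0.119), glucosamine 1 (0.0772) or glucosamine 3 (0.108). IFIT2 rose by 0.32 ± 0.08 (adjusted p = 0.0168), which became 0.0557 without control 1 and 0.067 without control 3. IFIT3, next to IFIT2, differed by 0.11 with an interval of -0.11 to 0.32.

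Of the 4 genes grouped here under membrane and entry restriction, MX2 passed the test. IFITM1, which hinders fusion of virus with the cell, read 11.04, 11.03 and 11.06 in control and 10.85, 10.94 and 10.96 after glucosamine. Every treated array was lower, but the difference of -0.12 ± 0.05 did not pass (adjusted p = 0.138). MX2, a dynamin-like protein of the nuclear envelope that restricts HIV, fell from 9.44, 9.27 and 9.27 to 9.05, 9.11 and 9.17, or by 0.21 ± 0.07 (adjusted p = 0.046). That call was lost with the replicate block (0.0537) and whichever of the 6 arrays was left out, with adjusted p from 0.0682 without glucosamine 3 to 0.130 without control 1. MX1, its cytoplasmic relative and neighbour, differed by 0.05 with an interval of -0.12 to 0.21, but its probe set was dim, at a mean of 4.87 in control. BST2, or tetherin, which holds budding virus at the cell surface, differed by -0.03 with an interval of -0.16 to 0.11.

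None of the 6 other antiviral effectors passed the test. The exonuclease ISG20 differed by 0.20 ± 0.07 (adjusted p = 0.069) and the ubiquitin ligase TRIM22 by 0.26 ± 0.09 (adjusted p = 0.0604), both with every treated array above every control. TRIM22 had an adjusted p of 0.0181 with the replicate block and 0.00473 without glucosamine 1, its lowest treated array. The gap of SAMD9L, a restriction factor of poxviruses, was -0.11, and that of its neighbour SAMD9 was -0.13. The lipid-droplet enzyme viperin, RSAD2, and its neighbour CMPK2 stood at -0.02 and 0.12. The RSAD2 signal lay near the bottom of the scale, at a mean of 4.15 in control. Among guanylate-binding proteins, GTPases that attack the compartments of intracellular pathogens, GBP4 went from 5.34, 5.61 and 5.70 to 4.94, 5.25 and 5.15, with no overlap between groups. It fell by 0.44 ± 0.11 (adjusted p = 0.0212), and its call was lost without control 2 (0.0781), control 3 (0.0803) or glucosamine 3 (0.0535). GBP2 differed by 0.17 with a wide interval of -0.39 to 0.73, since its arrays of replicate 1 lay far below the others in both groups.

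USP18 takes the ubiquitin-like protein ISG15 off its targets and also blocks signalling at IFNAR2. Its control arrays were nearly identical at 7.72, 7.73 and 7.72, and the treated arrays read 8.11, 8.04 and 8.00. The rise of 0.33 ± 0.05, or 1.25-fold, was larger than the spread in either group (adjusted p = 0.00259). ISG15 itself differed by 0.16 with an interval of -0.14 to 0.46, and its array of glucosamine 1, at 7.04, stood above the other 2, at 6.56 and 6.55. HERC5, the ligase that attaches ISG15, and its neighbour HERC6 had differences of -0.10 and -0.06 (adjusted p = 0.212 and 0.486). Both probe sets lay near the bottom of the scale, at means of 3.64 and 3.61 in control. PARP9, which acts with DTX3L in the antiviral response, fell from 4.65, 4.58 and 4.75 to 4.47, 4.28 and 4.36, or by 0.29 ± 0.07 (adjusted p = 0.018). All of these signals lay under 5, the threshold used here for dim probe sets, so the fall was between low signals. The PARP9 call was lost without control 3 (0.0695), glucosamine 2 (0.06) or glucosamine 3 (0.0609). PARP14, an ADP-ribosyltransferase of the same family, differed by 0.16 with an interval of -0.16 to 0.48.

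The steepest rises were those of IFI44L and IFI44, while other IFI genes rose less or were not called. IFI44L, a gene of little-known function used in blood signatures of interferon exposure, read 6.98, 7.31 and 7.40 in control and 7.92, 8.71 and 8.57 after glucosamine. It rose by 1.17 ± 0.20, or 2.25-fold (adjusted p = 0.00351), and within the 3 replicate numbers the difference was 0.94, 1.40 and 1.18. IFI44, its neighbour and relative on chromosome 1, rose from 5.21, 5.01 and 4.94 to 5.95, 6.08 and 5.95, or by 0.94 ± 0.08 (1.92-fold, adjusted p = 0.00015). IFI6, a small membrane protein that protects cells from death and from flaviviruses, rose by 0.31 ± 0.06 (adjusted p = 0.00586), from 8.18, 8.12 and 8.24 to 8.53, 8.42 and 8.52. These 3 genes kept their groups apart on every array. IFI27, a mitochondrial protein of the same family as IFI6, differed by 0.27 ± 0.15 (adjusted p = 0.246), and without glucosamine 2, which at 7.04 lay with the controls, its adjusted p was 0.00624. XAF1, which promotes cell death, IFI35 and EPSTI1 differed by 0.17, 0.01 and 0.21 and did not pass, but EPSTI1 had an adjusted p of 0.0424 with the replicate block.

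When all 8 arrays shared 1 estimate of the spread, 8 members rose and 1, GBP4, fell. Besides the genes named with this setting above, the calls of IRF7, IFIT2, IFIT5, MX2 and PARP9 were lost there (adjusted p = 0.557, 0.122, 0.191, 0.0880 and 0.357). With p-values adjusted over every deposited probe set, IRF7, OAS3, IFIT5, MX2 and GBP4 did not pass (0.0776, 0.0519, 0.0782, 0.0833 and 0.0533). IRF7 and MX2 also missed the threshold after quantile normalization (0.0779 and 0.0635) and with array weights (0.0850 and 0.0559), and IRF7 with an intensity trend (0.0641). In the other direction, array weights brought IRF9 and TRIM22 past it (0.0187 and 0.0067), quantile normalization TRIM22 (0.0332), a filter on dim probe sets TRIM22 (0.0491) and the intensity trend IFITM1 (0.0469). The count of members that fell was also the one that single arrays decided: it was 2 without control 2, 1 without control 3, 3 without glucosamine 1 or glucosamine 2, and 1 without glucosamine 3. IFIH1, OAS2, OASL, USP18, IFI6, IFI44 and IFI44L passed the test under all 15 alternatives, and IFIT1 under the 14 that kept its dim probe set. The filter on dim probe sets kept IFI44 only through its treated arrays, so that setting is no support for IFI44.

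**Figure D3:**
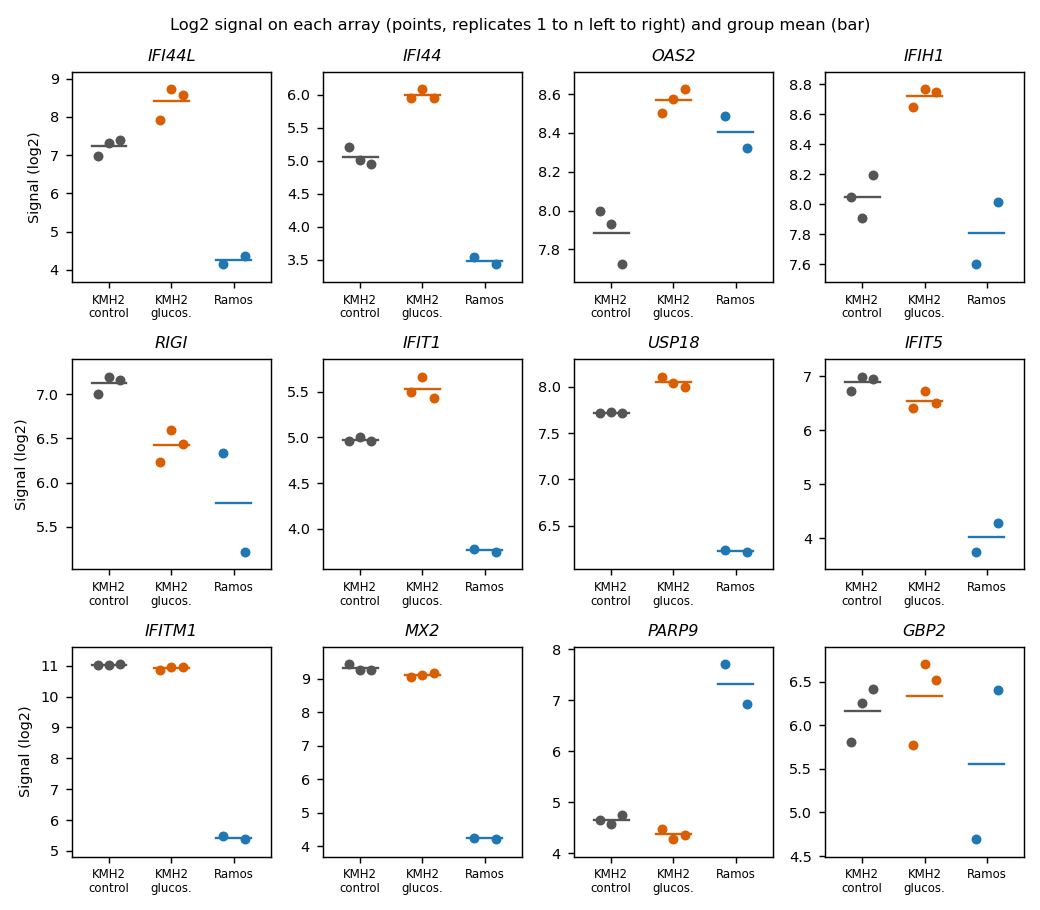
Log2 signal of 12 members on each array (points, replicates in order from left to right) with the group mean (bar), for KMH2 control, KMH2 glucosamine and Ramos; the vertical axis differs between panels. IFI44L and IFI44 are highest in KMH2 glucosamine and lowest in Ramos, and RIGI is lower in KMH2 glucosamine than in control.

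The comparison of the cell lines set the 2 Ramos arrays against the 3 KMH2 control arrays, with the spread taken from all 8 arrays. It uses the same control arrays as the glucosamine comparison, so the values of both comparisons are not independent. Of the 41 members 21 were called lower in Ramos, 6 higher and 14 neither, against 21.6% of all genes lower and 22.6% higher. The median difference was -0.61 over the members and 0.061 over all genes. IFITM1 and MX2 had the largest deficits, and PARP9 the largest excess. In 21 members both Ramos arrays lay below all 6 KMH2 arrays and in 5 above them, against 21.5% and 27.1% of all genes.

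**Figure D4:**
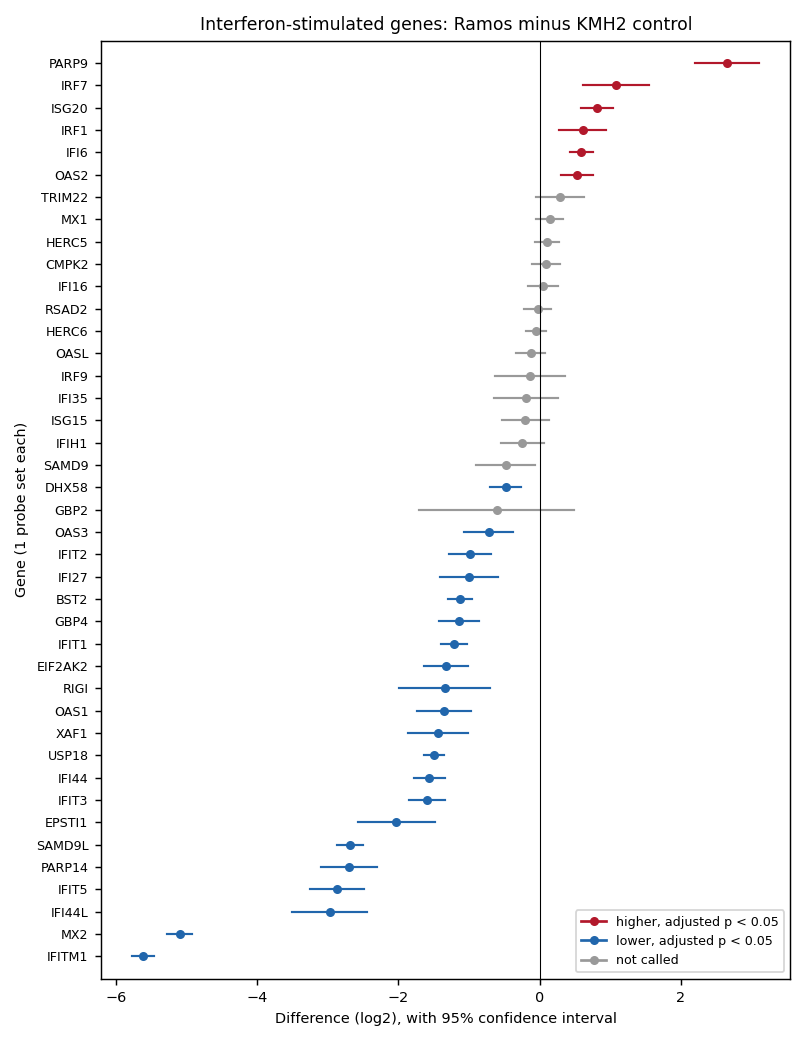
Difference between Ramos and KMH2 control (log2) for the 41 measured members, with its 95% confidence interval from limma; colour marks members past an adjusted p of 0.05. IFITM1 at -5.61 and MX2 at -5.09 stand at the lower end, and PARP9 at 2.65 at the upper end.

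Of all members, IFITM1 and MX2, both listed under membrane and entry restriction, differed most. IFITM1 read 5.48 and 5.38 in Ramos against 11.03 to 11.06 in KMH2 control, a difference of -5.61 ± 0.07 or 48.9-fold (adjusted p = 9.1e-10). The IFITM genes resemble each other, so the probe sets of IFITM1 and its relatives may also read each other's RNA. MX2 read 4.25 and 4.22, against 9.27 to 9.44, which is -5.09 ± 0.08 or 34.1-fold lower in Ramos (adjusted p = 1.33e-09). MX1, its neighbour, differed by 0.14 with an interval of -0.05 to 0.33. Its probe set was already dim in KMH2 control, at a mean of 4.87 against 9.33 for MX2. It therefore could not show a deficit as large as that of MX2. BST2 was lower by a smaller amount, with 8.50 and 8.39 in Ramos and a difference of -1.13 ± 0.07 (adjusted p = 4.65e-06).

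All 4 IFIT genes were lower in Ramos. The widest gap was that of IFIT5, with 3.75 and 4.29 in Ramos and a difference of -2.87 ± 0.17, or 7.32-fold (adjusted p = 2.53e-06). IFIT3 differed by -1.59 ± 0.11, IFIT1 by -1.21 ± 0.08 and IFIT2 by -0.99 ± 0.13 (adjusted p = 7.81e-06, 5.58e-06 and 0.000335). In each of the 4 genes both Ramos arrays lay below all 6 KMH2 arrays. Since array signals near the bottom of the scale include background, folds of genes this dim in Ramos may be understated.

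The OAS genes did not move as a block between the lines. OAS1, at 7.22 and 6.96 in Ramos, differed by -1.35 ± 0.16 (adjusted p = 0.000215), and OAS3, at 5.40 and 5.11, by -0.72 ± 0.15 (adjusted p = 0.0049, and 0.0508 with array weights). OAS2, the third gene of that cluster, was higher in Ramos by 0.52 ± 0.10 (adjusted p = 0.00267), at 8.49 and 8.32. Its Ramos arrays lay above the controls but not above the treated KMH2 arrays, and against the mean of both KMH2 groups the difference was 0.18 (adjusted p = 0.129). OASL differed by -0.13 with an interval of -0.33 to 0.08, and EIF2AK2 was lower by a difference of -1.33 ± 0.14 (adjusted p = 7.85e-05).

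Among the sensors RIGI was lower in Ramos, but its 2 arrays were far apart at 6.33 and 5.22. The difference was -1.35 ± 0.28 (adjusted p = 0.0044), and the Ramos array of 6.33 overlapped the treated KMH2 arrays. DHX58 was lower at -0.48 ± 0.10 (adjusted p = 0.00348). IFIH1 differed by -0.24 (adjusted p = 0.173), by -0.45 without the second Ramos array and by -0.037 without the first. IFI16 differed by 0.05 with an interval of -0.16 to 0.26. The activators IRF7 and IRF1 were higher in Ramos: IRF7 read 6.48 and 7.33, a difference of 1.08 ± 0.21 (adjusted p = 0.0029), and IRF1 read 8.50 and 8.43, a difference of 0.61 ± 0.15 (adjusted p = 0.00949, and 0.0819 with array weights). IRF9 read 7.07 and 7.89 in Ramos, on either side of all 6 KMH2 arrays, and differed by -0.14 (adjusted p = 0.633). Its difference was -0.55 without the second Ramos array and 0.27 without the first.

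PARP9 went against most members. It read 7.71 and 6.92 in Ramos against 4.58 to 4.75 in KMH2 control, a difference of 2.65 ± 0.20 or 6.28-fold (adjusted p = 1.12e-05). PARP14, with 4.33 and 4.65 in Ramos against 6.99 to 7.40, went the other way by -2.70 ± 0.17 (adjusted p = 4.42e-06). Both genes lie on chromosome 3, and for both the Ramos arrays were clear of all 6 KMH2 arrays.

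SAMD9L was lower in Ramos by a difference of -2.68 ± 0.08 (adjusted p = 3.85e-08), with 4.47 and 4.64 against 7.22 to 7.25. Its neighbour SAMD9, at 6.01 and 6.68, differed by -0.48 ± 0.18 and did not pass (adjusted p = 0.0641). The difference of SAMD9 was -0.82 without the second Ramos array and -0.15 without the first. ISG20 was higher, at 6.89 and 7.14, by 0.81 ± 0.10 (adjusted p = 0.000212). RSAD2, CMPK2, HERC5 and HERC6 had differences of -0.03, 0.09, 0.10 and -0.05 that did not pass, and their intervals all lay between -0.22 and 0.29. RSAD2, HERC5 and HERC6 averaged 4.15, 3.64 and 3.61 in KMH2 control and 4.12, 3.74 and 3.56 in Ramos. Signals so near the bottom of the scale include background, so equal expression cannot be read from these narrow intervals. TRIM22 differed by 0.29 (adjusted p = 0.15), by 0.52 without the first Ramos array and by 0.055 without the second.

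GBP4 was lower in Ramos, at 4.40 and 4.42, by a difference of -1.14 ± 0.13 (adjusted p = 0.00012). The 2 Ramos arrays of GBP2 stood at 4.69 and 6.41, the widest gap among the members. Its difference of -0.61 therefore had an interval of -1.70 to 0.49 (adjusted p = 0.344). That difference was -1.46 without the second Ramos array and 0.25 without the first. USP18 was lower at 6.24 and 6.22, a difference of -1.50 ± 0.06 (adjusted p = 3.17e-07). ISG15, whose conjugates USP18 removes, differed by -0.20 with an interval of -0.54 to 0.14.

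IFI44L and IFI44 stood lower in Ramos together, with differences of -2.97 ± 0.23 and -1.56 ± 0.09 (adjusted p = 1.43e-05 and 3.16e-06). Their Ramos arrays read 4.14 and 4.38 for IFI44L and 3.55 and 3.43 for IFI44, below all 6 KMH2 arrays. EPSTI1, XAF1 and IFI27 were lower as well, by differences of -2.03 ± 0.24, -1.44 ± 0.19 and -1.0 ± 0.18 (adjusted p = 0.000186, 0.000324 and 0.00205). IFI6 was higher, at 8.82 and 8.72 in Ramos, by 0.59 ± 0.07 (adjusted p = 0.000234), and IFI35 differed by -0.19 with an interval of -0.64 to 0.26.

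**Figure D5:**
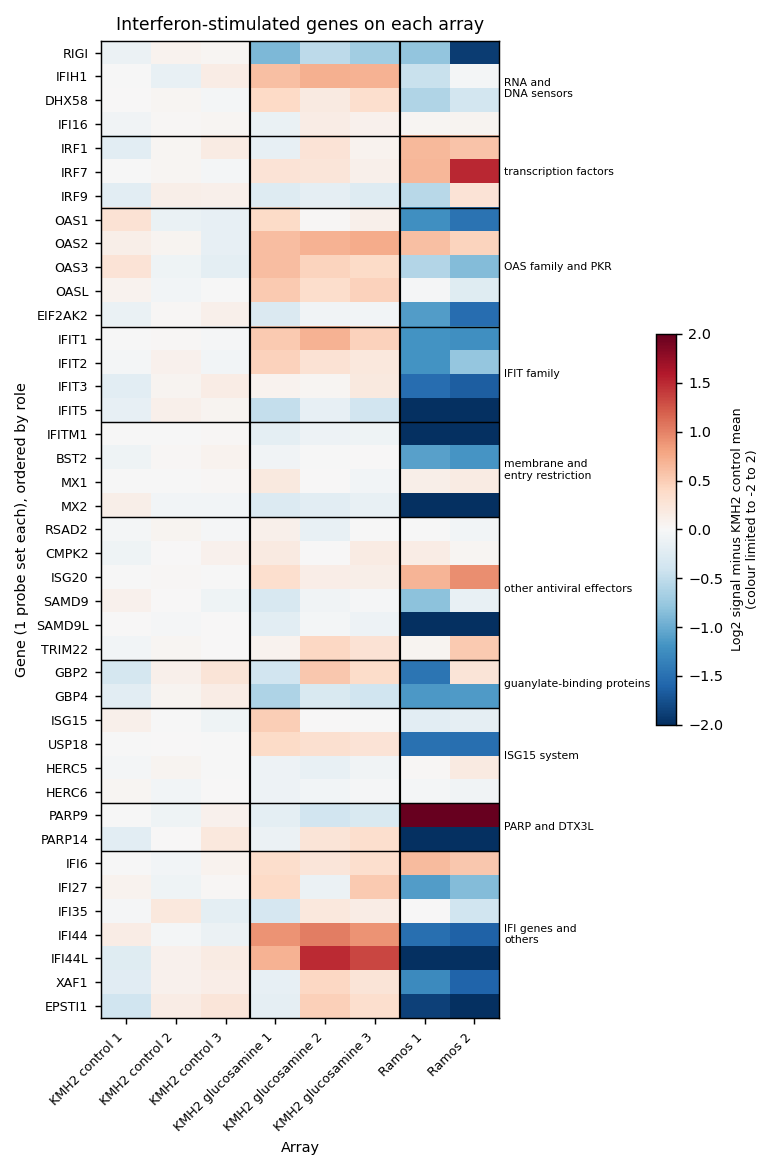
Log2 signal of each of the 41 measured members on each of the 8 arrays, minus its KMH2 control mean, grouped by role; the colour scale is limited to the range from -2 to 2, so that IFITM1, MX2, PARP9 and other members beyond it are drawn at its ends. The IFI, OAS and IFIT rows hold most of the rises after glucosamine, and the Ramos columns are mostly below control.

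In part of these genes replicate 1 stood at the same end of both KMH2 groups. In 14 of the 41 members (34.1%) replicate 1 was the lowest array of both KMH2 groups, against 17.4% of all genes, and in 4 (9.76%) it was the highest of both, against 19.4%. The 14 were RIGI, IFI16, IRF1, IRF9, EIF2AK2, IFIT5, BST2, TRIM22, GBP2, GBP4, PARP14, IFI44L, XAF1 and EPSTI1. OAS1, OAS3, OASL and ISG15 were the 4 with the opposite order. Without both arrays numbered 1, 14 members rose and 5 fell, and over all 17958 genes 2520 rose and 2636 fell. The 2 Ramos arrays differed by more than 0.5 in 7 members (17.1%, against 14.8% of all genes). These were GBP2 (second minus first 1.71), IRF7 (0.85), IRF9 (0.83), SAMD9 (0.67), IFIT5 (0.54), PARP9 (-0.79) and RIGI (-1.11).

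Upstream of these genes stand the interferons. Of 14 measured interferon genes IFNG, interferon gamma, was the one called after glucosamine, and it rose from 3.96, 3.80 and 3.80 to 4.25, 4.23 and 4.08, or by 0.33 ± 0.07 (adjusted p = 0.00974). In Ramos, IFNE was the one called, at 0.21 ± 0.06 (adjusted p = 0.0214). The signals of both probe sets lay near the bottom of the scale. Of all genes 12.0% rose after glucosamine and 22.6% were higher in Ramos.

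Among 10 measured receptor and JAK-STAT genes 2 rose and 2 fell after glucosamine, against 12.0% and 14.1% of all genes. IFNGR1, the ligand-binding chain for interferon gamma, rose from 7.50, 7.41 and 7.48 to 8.23, 8.15 and 8.15, or by 0.71 ± 0.05 (adjusted p = 0.000107), while IFNGR2 differed by -0.08 (adjusted p = 0.387). IFNAR1 rose by 0.39 ± 0.07 and IFNAR2 fell by 0.21 ± 0.06 (adjusted p = 0.00319 and 0.0305). STAT3, which carries signals of several cytokines, fell by 0.22 ± 0.07 (adjusted p = 0.0462). The kinases JAK1 and TYK2 differed by 0.01 and -0.02, with intervals of -0.13 to 0.15 and -0.16 to 0.12. In Ramos 1 of these 10 genes was higher and 4 were lower, against 22.6% and 21.6% of all genes. IFNGR1 was higher by 1.96 ± 0.13 and IFNGR2 differed by -0.95 ± 0.11, TYK2 by -1.10 ± 0.08 and STAT3 by -0.82 ± 0.11 (adjusted p = 4.66e-06, 0.00021, 8.47e-06 and 0.000352). IFNAR1, IFNAR2 and JAK1 differed by -0.13, 0.18 and -0.15 and did not pass (adjusted p = 0.337, 0.297 and 0.633).

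Genes that detect nucleic acid and lead to interferon production were split after glucosamine. Of 23 measured, 7 were higher and 6 lower, against 12.0% and 14.1% of all genes. AIM2, a cytosolic DNA sensor of the inflammasome, fell by 1.33 ± 0.11 (adjusted p = 0.000126), from 7.55, 7.68 and 7.81 to 6.15, 6.54 and 6.35. MAVS, the adaptor through which RIGI and IFIH1 signal, fell by 0.49 ± 0.07, and STING1 and CGAS, the adaptor and enzyme of the cytosolic DNA pathway, fell by 0.44 ± 0.05 and 0.30 ± 0.07 (adjusted p = 0.0011, 0.000479 and 0.0133). TLR3, an endosomal receptor for double-stranded RNA, rose by 0.55 ± 0.08 (adjusted p = 0.00134). The kinase TBK1 and its substrate IRF3 differed by 0.12 and 0.10 and did not pass (adjusted p = 0.167 and 0.358). In Ramos 6 of the 23 were higher and 11 lower, against 22.6% and 21.6% of all genes. CGAS read 4.44 and 5.05 there, a difference of -4.46 ± 0.16, STING1 differed by -2.99 ± 0.09, RNF135, a ligase that activates RIGI, by -2.88 ± 0.08 and IRF5 by -1.56 ± 0.08 (adjusted p = 1.24e-07, 5.11e-08, 3.1e-08 and 1.34e-06). TBK1 and IRF3 were higher by 0.81 ± 0.07 and 0.44 ± 0.08 (adjusted p = 2.51e-05 and 0.0024), and MAVS differed by 0.12 (adjusted p = 0.318).

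Of 17 measured genes that restrain interferon signalling, 1 rose and 3 fell after glucosamine, against 12.0% and 14.1% of all genes. RNASEH2A, a subunit of the enzyme that removes RNA from DNA, fell by 0.45 ± 0.05, SOCS2 by 0.31 ± 0.05 and SOCS3 by 0.27 ± 0.08, and PIAS4 rose by 0.18 ± 0.05 (adjusted p = 0.000655, 0.00334, 0.0445 and 0.0425). In Ramos 4 of the 17 were higher and 5 lower, against 22.6% and 21.6% of all genes. The phosphatases PTPN6, which read 10.38 and 8.25 in Ramos, and PTPN2 were higher by 3.20 ± 0.50 and 0.46 ± 0.08 (adjusted p = 0.000917 and 0.0019). SOCS2 and SOCS3, which block receptors and their kinases, differed by -4.09 ± 0.08 and -0.63 ± 0.10 (adjusted p = 3.19e-09 and 0.00111).

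A further list of 48 measured interferon-stimulated genes outside the 44 had 5 higher and 9 lower after glucosamine, against 12.0% and 14.1% of all genes. Its median difference was -0.020, so it did not show the positive median of the members. The cytidine deaminases APOBEC3G and APOBEC3F, which mutate retroviral DNA, rose by 1.15 ± 0.08 and 1.11 ± 0.06, and TOR1B by 0.67 ± 0.05 (adjusted p = 8.56e-05, 2.94e-05 and 0.000111). The APOBEC3 genes resemble each other closely, so single members are uncertain. TNFSF10, the death ligand TRAIL, fell by 0.88 ± 0.06 (adjusted p = 9.69e-05), from 10.43, 10.53 and 10.55 to 9.53, 9.69 and 9.67. The chemokine CXCL10 fell by 0.45 ± 0.07 (adjusted p = 0.00174). In Ramos 11 of the 48 were higher and 21 lower, against 22.6% and 21.6% of all genes. Among the lower genes CXCL10 stood at -6.60 ± 0.22, IFITM2, a relative of IFITM1, at -4.25 ± 0.11, CXCL11 at -4.18 ± 0.15 and PARP12 at -3.16 ± 0.15 (adjusted p = 8.21e-08, 2.03e-08, 1.08e-07 and 6.53e-07).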

How the data were processed

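RNA of 8 samples was labelled with biotin and hybridised to Affymetrix HuGene-1_1-st arrays, per the labels' protocols. The deposited values were log2 signals for 33297 probe sets; the unit was read from the values, from 1.94 to 13.21, and the background correction and normalization are not given in the sources used here. Detection calls were not used here, and precision is limited by the number of arrays. The array annotation, dated 2016, pairs 19181 probe sets with 1 symbol (17958 genes), 2055 with several and leaves 12061 unlisted; 19143 matched RefSeq by Entrez identifier.

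Differences, standard errors and intervals come from limma 3.58.1 in R 4.3.3 (two-sided; functions lmFit and eBayes; Benjamini-Hochberg adjustment over the 19181 probe sets, threshold 0.05). The glucosamine comparison used the 6 KMH2 arrays, and the cell-line comparison all 8 arrays in 3 groups. The script was tested on simulated data. Replicate numbers come from the titles, and deviations from the group means correlated between arrays of the same number at 0.457, 0.234 and 0.231. All were over 0.1, and the numbers were taken to pair the samples by that rule. The main glucosamine test did not use this pairing, so its errors, intervals and p-values are unpaired. The replicate number entered only as a block among the alternatives. Different numbers correlated at -0.369 to 0.252; replicates 2 and 3 correlated across numbers at 0.252 and 0.182, about as within them, so the values set replicate 1 apart but not 2 from 3.

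The members and the gene lists were chosen with earlier results of these data known. Genes named from each list are, per comparison, the up to 4 called genes of smallest p, with IFNAR1, IFNAR2, IFNGR1, JAK1, TYK2, IRF3, MAVS, STING1, CGAS and TBK1; 1 further gene of that rule is not reported here. The markers named, and the glucosamine values of IFNGR2 and CXCL10, were chosen after their values were seen. Alternatives changed the normalization, the filter on dim probe sets, the probe sets adjusted over, array weights, the variance trend, the probe sets per gene, the arrays that share the spread, the baseline and single arrays.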

Additional observations from a re-analysis of the deposited data

How the results depend on the processing

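The number of arrays limits what these data resolve. With the replicate number as a block, 14 members rose and 5 fell, and 2540 and 2863 of all genes; the block gained IRF9, EPSTI1 and TRIM22, lost MX2 and changed no other call among the members. With all 8 arrays sharing the spread, 947 of all genes rose and 1120 fell, and 1 member fell; 2 members fell with p-values adjusted over every deposited probe set. Leaving out single arrays gave 1 to 5 members that fell; the cause was not tested, but fewer arrays entered each of these fits. Of the calls after glucosamine, 7 of the 12 rises and 0 of the 5 falls passed under all 15 alternatives. Of those in Ramos, 4 of 6 higher and 19 of 21 lower passed under all 13. These 13 include fits that leave 1 Ramos array, and the p-values of such fits hold no spread between Ramos arrays. The filter on dim probe sets used the mean over all 8 arrays, which includes the group where a gene is high. PARP9, at 4.66 in KMH2 control, was kept only through its Ramos arrays, and IFI44 only through its treated arrays. For these genes that setting is no support. MX2, IFIT3, IFIT5, SAMD9L, GBP4, PARP14, IFI44L and EPSTI1 had Ramos means under 5 and were kept only through their KMH2 arrays. For their lower calls in Ramos that setting is no support either. IFIT1, left out by the filter on dim probe sets, passed under the other 14 and 12.

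Signs changed only among members that were not called. BST2 stood at 0.0017 after quantile normalization, and MX1 at -0.020 with array weights and -0.027 without both arrays numbered 1. When single arrays were left out, the glucosamine difference ran from -0.024 to 0.12 for IFI16, -0.047 to 0.18 for IRF1, -0.067 to 0.0068 for BST2, -0.025 to 0.10 for MX1, -0.077 to 0.047 for RSAD2, -0.011 to 0.45 for GBP2, -0.00044 to 0.25 for ISG15 and -0.094 to 0.18 for IFI35. The Ramos difference ran from -0.55 to 0.27 for IRF9, -0.050 to 0.0034 for RSAD2, -1.46 to 0.25 for GBP2 and -0.39 to 0.011 for IFI35.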
